A study of Mus musculus with 5 samples.

Results

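The genes described here encode sulfiredoxin, the thioredoxin reductases, thioredoxin, its inhibitor and the peroxiredoxins: Srxn1, Txnrd1, Txnrd2, Txn1, Txnip, Prdx1, Prdx2, Prdx3, Prdx5 and Prdx6. Their probes were taken by name, as every non-control probe that the array assigns to one of these symbols, with no measured value in the rule. They make up 10 of the 36870 gene names on the array and 23 of its 56605 probes. All 10 genes were measured in every group, and the scanner software called 21 of the 23 probes well above background on all 5 arrays. The exceptions are a Txnrd2 probe that was not well above background on any array and a Prdx6 probe that was not well above background with troglitazone.

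The RNA came from livers of female BALB/c mice, 6 weeks old, taken 6 hr after intraperitoneal dosing. Mice received vehicle, 300 mg/kg troglitazone (TGZ), TGZ at that dose together with 700 mg/kg buthionine sulfoximine (BSO), 300 mg/kg rosiglitazone (RGZ), or the same RGZ dose together with 700 mg/kg BSO. Both glitazones are thiazolidinediones that activate the nuclear receptor PPAR gamma. TGZ carries a chroman ring like that of vitamin E where RGZ carries an aminopyridine group, and BSO blocks the synthesis of glutathione. Equal amounts of RNA from 6 animals were pooled in each group and put on 1 array, so there are no replicates and no difference between groups was tested. The arms do not include BSO by itself, and the comparisons with vehicle all share the single vehicle array, as the TGZ and RGZ arrays also enter several comparisons.

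Cells remove hydrogen peroxide and organic peroxides with peroxiredoxins, whose catalytic cysteine is oxidised in each cycle and is reduced again, for most members of the family, by thioredoxin. Thioredoxin reductases, which are selenoproteins, restore thioredoxin with electrons from NADPH, and sulfiredoxin repairs peroxiredoxins that have been oxidised too far. Txnip binds reduced thioredoxin and holds it inactive. Srxn1, Txnrd1 and Prdx1 are known targets of the transcription factor NRF2, which binds antioxidant response elements with a small MAF partner, and Txnip is a known target of the glucose-sensing factors MondoA and ChREBP, which bind carbohydrate response elements.

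The 250 bases before the annotated start were searched for matches to the elements named above, and the 4 windows shown are those that held one. They belong to Srxn1 and Txnrd1, whose signals spanned 5.04-fold and 2.68-fold between the arrays, and to Prdx1 and Txnip, at 1.29-fold and 1.67-fold. The Srxn1 window is shown only for a form that was added after the sequences had been read. A link between the matches and the signals was not tested. The sequences are from RefSeq on GRCm38.p6. Windows of 9 of the 10 members were used, 11 in all, with 3 starts for Txnrd1, and no window of Prdx6 was used here. Each is written 5′ to 3′ on the strand of the gene, with the matching letters in capitals, and all 4 genes lie on the plus strand. The windows are chr2:152105274-152105523 for Srxn1, chr10:82858956-82859205 for Txnrd1, chr4:116685349-116685598 for Prdx1 and chr3:96557707-96557956 for Txnip.
Srxn1: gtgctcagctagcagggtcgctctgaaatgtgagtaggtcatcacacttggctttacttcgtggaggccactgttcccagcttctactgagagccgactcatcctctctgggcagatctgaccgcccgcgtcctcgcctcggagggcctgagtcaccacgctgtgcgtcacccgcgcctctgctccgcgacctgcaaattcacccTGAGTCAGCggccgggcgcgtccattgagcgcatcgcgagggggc
Txnrd1: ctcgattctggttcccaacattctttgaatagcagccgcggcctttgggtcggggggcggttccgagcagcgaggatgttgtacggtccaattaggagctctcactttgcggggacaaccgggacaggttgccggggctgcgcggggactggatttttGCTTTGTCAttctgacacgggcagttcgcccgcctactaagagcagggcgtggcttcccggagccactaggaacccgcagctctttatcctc
Prdx1: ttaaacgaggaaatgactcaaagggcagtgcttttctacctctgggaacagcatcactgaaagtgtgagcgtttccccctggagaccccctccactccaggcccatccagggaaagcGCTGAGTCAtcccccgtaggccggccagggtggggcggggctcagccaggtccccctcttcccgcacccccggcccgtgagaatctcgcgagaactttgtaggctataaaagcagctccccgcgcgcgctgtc
Txnip: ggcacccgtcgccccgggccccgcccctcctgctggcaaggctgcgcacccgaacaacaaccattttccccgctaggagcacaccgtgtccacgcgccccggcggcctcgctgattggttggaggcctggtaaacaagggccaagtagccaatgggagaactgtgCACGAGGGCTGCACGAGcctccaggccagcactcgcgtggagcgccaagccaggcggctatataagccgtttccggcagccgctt
Motifs were searched on both strands. The core of the antioxidant response element, TGACNNNGC, occurred in 2 of the 11 windows, those shown for Txnrd1 and Prdx1, and in 10.2% of 32851 promoter windows of the same length. In both it read on the reverse strand, from 92 to 84 bases before the start for Txnrd1 and from 133 to 125 bases before it for Prdx1. The other windows of Txnrd1, at 2 further starts, held no match. The form that NRF2 shares with MAF, TGANTCAGC, was added to the search after the sequences had been read. It occurred in the Srxn1 window, from 45 to 37 bases before the start, and at the same 9 letters as the core in the Prdx1 window, and in 1.02% of all windows. The carbohydrate response element, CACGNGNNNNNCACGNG, occurred in the Txnip window from 85 to 69 bases before the start, and in 0.0457% of all windows, which is 15 of them. A match is a description of these letters and not a measured site.

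In the text below a signal is the processed signal of a probe as a multiple of the 75th percentile of its array, and a difference is on the log2 scale. Signals of different probes are not comparable, so each gene is compared only with itself across the arrays. Each 95% interval is built from the measurement error that the scanner software assigns to the spots, and leaves out variation between animals and between labelling reactions. For the members that error was nearly the same share of the signal on every spot, with an SD of 0.204 for each difference of 2 arrays. Intervals of such differences therefore act as a nearly fixed cut at about 1.32-fold, and do not show a precision measured for each gene. A gene was called at a difference of at least 2-fold. The 75th percentile itself lay between 141 and 208 units of processed signal, and the share of probes called well above background was 51.9% to 55.2%. No spot was saturated, and the brightest member probe, at 64526 to 112426 units, lay below the brightest spike-in RNA on every array, at 237069 to 257961 units. All 12 hepatocyte markers were well above background on all 5 arrays.

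Sulfiredoxin was the member that differed most between the groups. The Srxn1 probe, the only one for this gene, lies at chr2:151937009-151937068 of mm9. Its signal was 23.6 with vehicle, 115 with TGZ, 107 with BSO plus TGZ, 22.8 with RGZ and 103 with BSO plus RGZ. Both TGZ arrays and the array with BSO plus RGZ were therefore high, and RGZ alone was at the level of vehicle. Against vehicle, Srxn1 was 4.86-fold higher with TGZ (3.69 to 6.42), 4.55-fold higher with BSO plus TGZ (3.45 to 6.00) and 4.35-fold higher with BSO plus RGZ (3.30 to 5.74). With RGZ alone the ratio to vehicle was 0.964 (0.731 to 1.27). In the order of the arrays, the 3 high ones were not apart from each other beyond measurement error, and a gap of 2.12 (1.72 to 2.52) on the log2 scale separated the lowest of them from vehicle. Over the 5 arrays the signal of Srxn1 spanned 5.04-fold, a wider span than that of 96.1% of the 18487 genes that were well above background on all arrays.

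**Figure D1:**
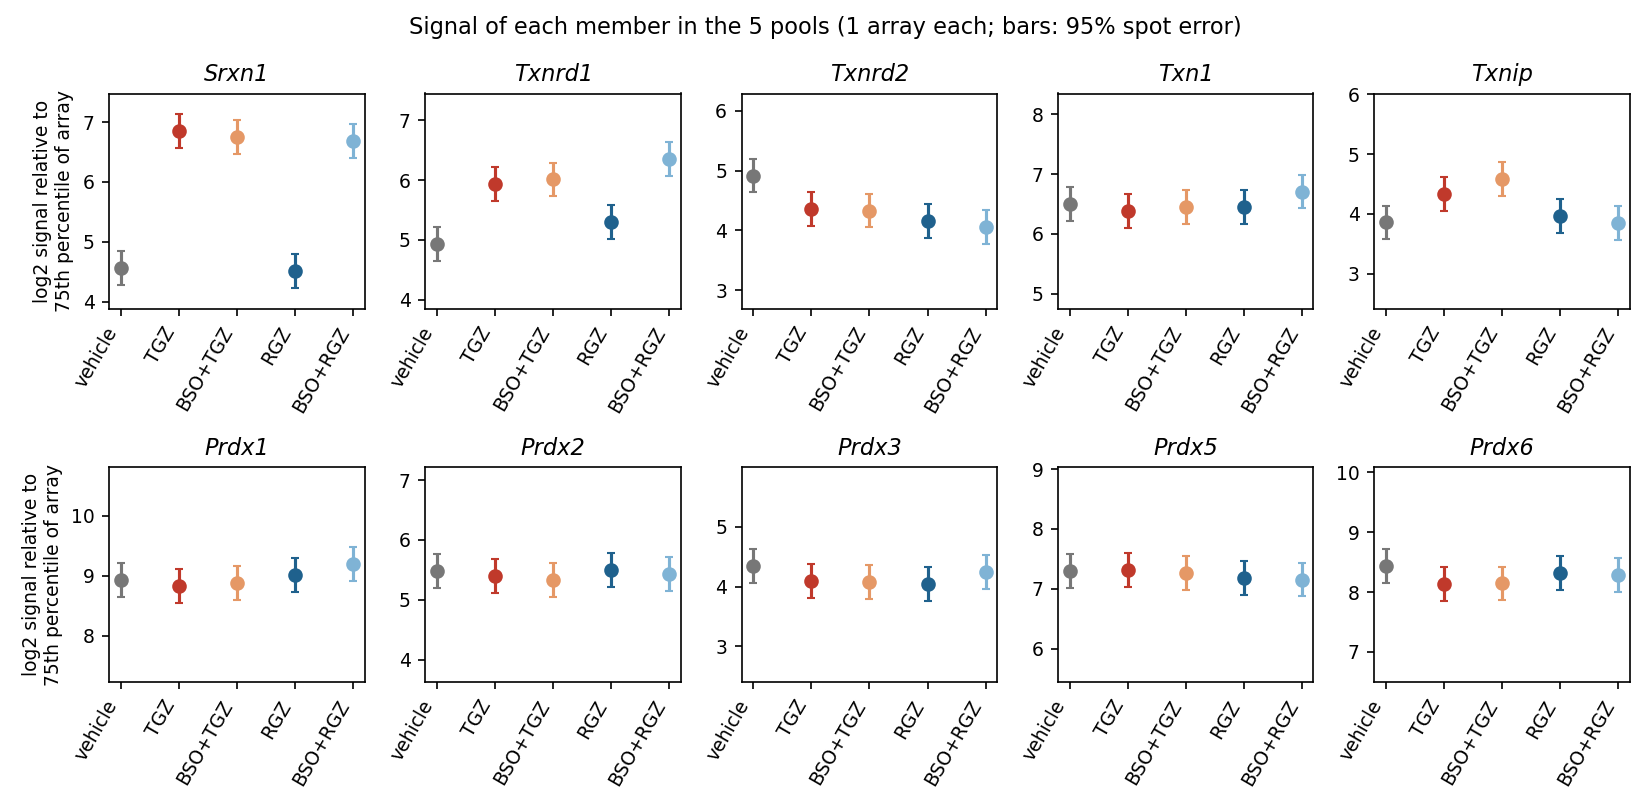
For each of the 10 members, the log2 signal relative to the 75th percentile of the array, on the 5 arrays, 1 point per pooled array, with axes of equal width and bars for the 95% interval of spot measurement error. Srxn1 is low with vehicle and RGZ (signals of 23.6 and 22.8) and high on the other 3 arrays (103 to 115), Txnrd1 runs from 30.6 to 82.1, and the 5 peroxiredoxins spanned at most 1.29-fold.

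Among the reductases, the cytosolic enzyme Txnrd1 was high on the same 3 arrays as Srxn1, by less. Its brighter probe, at chr10:82360230-82360289 of mm9, gave a signal of 30.6 with vehicle, 61.4 with TGZ, 64.5 with BSO plus TGZ, 39.3 with RGZ and 82.1 with BSO plus RGZ. The array with BSO plus RGZ was thus the highest, and RGZ alone lay between vehicle and the rest. Against vehicle, Txnrd1 was 2.01-fold higher with TGZ (1.52 to 2.65), 2.11-fold higher with BSO plus TGZ (1.60 to 2.78) and 2.68-fold higher with BSO plus RGZ (2.03 to 3.54). The value with TGZ is at the threshold itself, at a log2 difference of 1.00, and came within 2-fold when scaled on spike-in RNA (0.55) or background-corrected with normexp (0.89). With BSO plus TGZ it likewise came within 2-fold when scaled on spike-in RNA, at 0.88 in place of 1.08. With RGZ alone the ratio was 1.28 (0.974 to 1.70). The dimmer Txnrd1 probe, at chr10:82338379-82338438, gave log2 differences from vehicle of 1.13 with TGZ, 1.18 with BSO plus TGZ, 0.42 with RGZ and 1.59 with BSO plus RGZ, the same order of the arrays as the brighter one. In that order BSO plus RGZ was not apart from BSO plus TGZ, nor BSO plus TGZ from TGZ, while BSO plus RGZ lay 0.42 (0.02 to 0.82) above TGZ. The gap from TGZ down to RGZ was 0.64 (0.24 to 1.04), and the gap from RGZ to vehicle was 0.36 (-0.04 to 0.76).

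The mitochondrial reductase Txnrd2 was lower in every treated group than with vehicle, within 2-fold, by its brightest probe at chr16:18479106-18479165 of mm9. The signal was 30.2 with vehicle, 20.5 with TGZ, 20.2 with BSO plus TGZ, 17.8 with RGZ and 16.7 with BSO plus RGZ. Vehicle stood above the next array by 0.56 (0.16 to 0.96) on the log2 scale, and neighbours among the treated arrays were not apart. The probes of this gene disagreed. The second probe gave signals of 5.98, 6.07, 5.58, 5.71 and 5.71 in the same order of groups, which is flat, and the third gave 0.509, 0.368, 0.340, 0.375 and 0.382, which is again highest with vehicle. Averaged over probes, the difference between BSO plus RGZ and vehicle was -0.45 in place of -0.86. Scaled on spike-in RNA, Txnrd2 with TGZ was 1.01 lower than vehicle on the log2 scale, past 2-fold.

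Thioredoxin itself, Txn1, varied little. Its single probe, at chr4:57956677-57956736 on the minus strand of mm9, gave 90.1 with vehicle, 83.5 with TGZ, 87.2 with BSO plus TGZ, 87.3 with RGZ and 105 with BSO plus RGZ. No neighbours in that order were apart beyond measurement error, and the span of 1.25-fold was wider than that of 15.0% of genes. The gene that codes for its inhibitor, Txnip, was somewhat higher with TGZ in both arms. The brighter probe, at chr3:96365340-96365399, gave 14.5 with vehicle, 20.1 with TGZ, 23.9 with BSO plus TGZ, 15.6 with RGZ and 14.3 with BSO plus RGZ. The ratio to vehicle was 1.39 with TGZ (1.05 to 1.83) and 1.65 with BSO plus TGZ (1.25 to 2.18), both within 2-fold. The dimmer probe gave log2 differences of 0.63, 0.78, 0.35 and 0.14 for TGZ, BSO plus TGZ, RGZ and BSO plus RGZ against vehicle, beside 0.48, 0.72, 0.10 and -0.02 from the brighter one. Scaled on spike-in RNA, the difference with TGZ was 0.02.

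**Figure D2:**
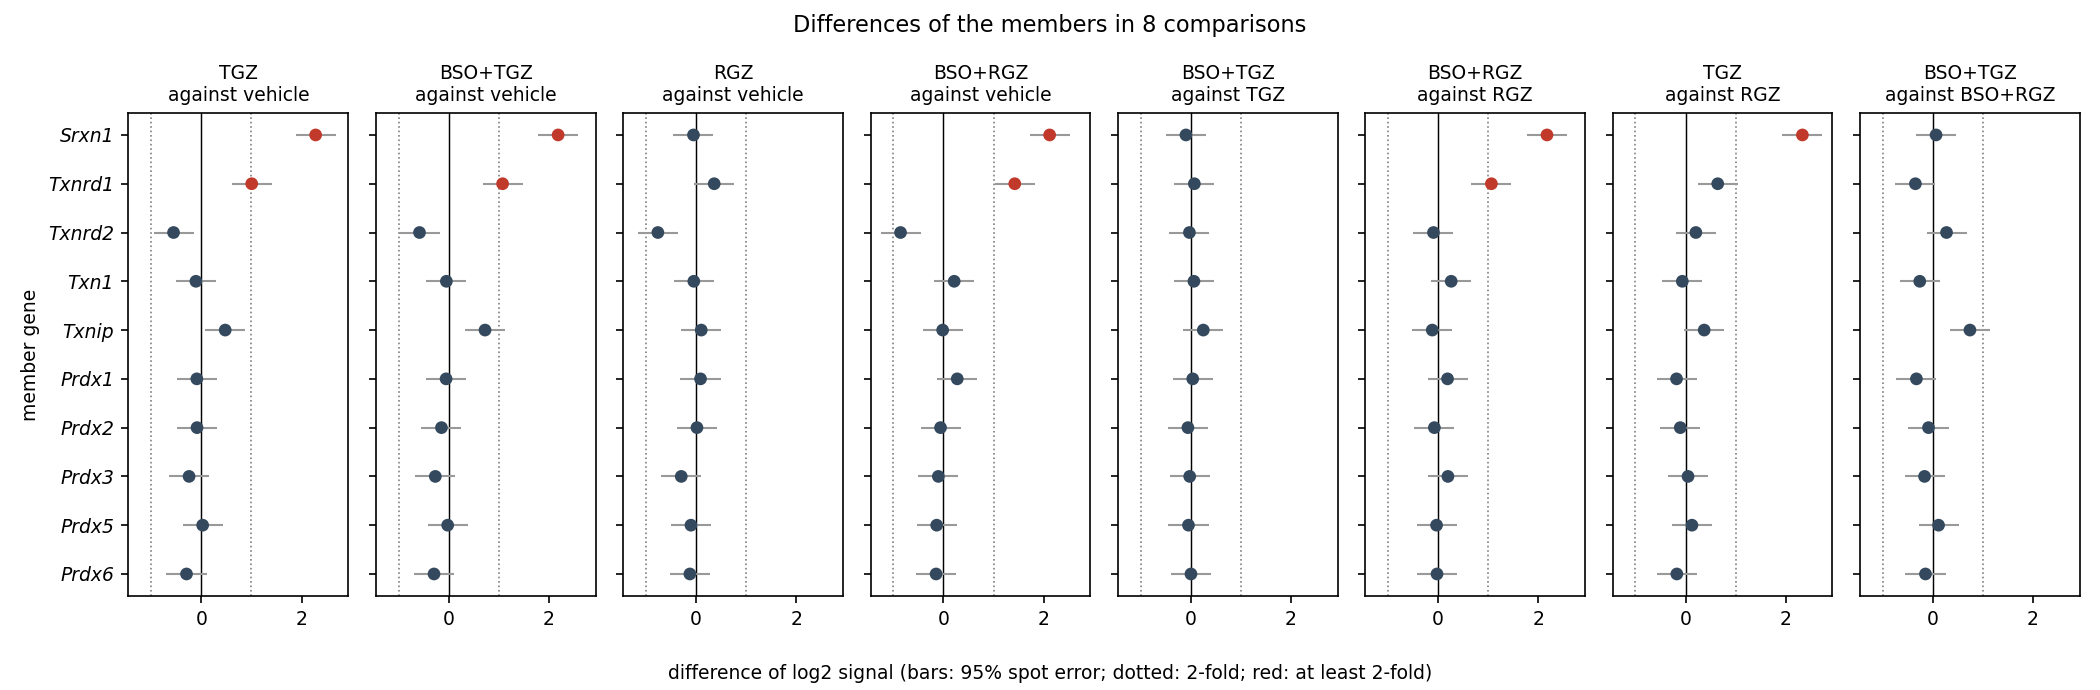
Log2 difference of each member between the groups named on the panels, 1 pooled array per group, with bars for the 95% interval of spot measurement error and dotted lines at 2-fold. Srxn1 and Txnrd1 are past the upper line against vehicle with TGZ, BSO plus TGZ and BSO plus RGZ, Txnrd1 with TGZ only just at 1.00, and no member is past either line with RGZ.

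By the brightest probe of each gene, the peroxiredoxins differed little in any comparison. Prdx1 and Prdx2 are cytosolic enzymes, Prdx3 is mitochondrial, Prdx5 is found in mitochondria, peroxisomes and cytosol, and Prdx6 is the member with a single catalytic cysteine, which is reduced with glutathione. By these probes, all 40 log2 differences of the 5 genes in the 8 comparisons lay between -0.33 and 0.28, and all 40 intervals included 0. Other probes of Prdx1 and Prdx6 went further, as given below. The Prdx1 signal, from the brightest probe at chr4:116372029-116372088, was 486 with vehicle, 456 with TGZ, 468 with BSO plus TGZ, 516 with RGZ and 588 with BSO plus RGZ. Prdx1 and Txn1 were thus both highest with BSO plus RGZ, though neither was apart from the next array. Prdx2 (chr8:87498153-87498212) gave 44.7, 42.1, 40.4, 45.3 and 43.0 in the same order of groups. Prdx3 (chr19:60940148-60940207, minus strand) gave 20.3, 17.1, 16.9, 16.5 and 18.9, highest with vehicle. Prdx5 (chr19:6981197-6981256, minus strand) gave 156, 159, 154, 146 and 142, and Prdx6 (chr1:163171138-163171197, minus strand) gave 347, 282, 283, 318 and 313. Prdx2 and Prdx5 were the flattest of the 10 members, each with a span of 1.12-fold, and 2.50% and 2.40% of genes spanned less. The 5 spans ran from 1.12-fold to 1.29-fold.

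The probes of Prdx6 differed in size rather than direction with TGZ, apart from 1 that was flat. The probe whose vehicle signal was 1.40 gave 0.595 with TGZ, 0.851 with BSO plus TGZ, 1.30 with RGZ and 1.31 with BSO plus RGZ, a log2 difference of -1.23 between TGZ and vehicle. The dimmest gave 0.182 with vehicle, 0.069 with BSO plus TGZ, 0.153 with RGZ and 0.187 with BSO plus RGZ, and was not well above background with TGZ. The former was thus lower than vehicle in both TGZ arms by more than the brightest probe, which was at -0.30 and -0.29 there, while the second brightest probe differed from vehicle by -0.01 with TGZ. A Prdx1 probe with a vehicle signal of 0.152 ranged from -0.46 with RGZ to 0.62 with BSO plus TGZ. The second brightest Prdx1 probe, at 80.6 with vehicle, was at 0.38 for BSO plus RGZ against vehicle, beside 0.28 from the brightest. For BSO plus TGZ against BSO plus RGZ it was at -0.48, beside -0.33.

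**Figure D3:**
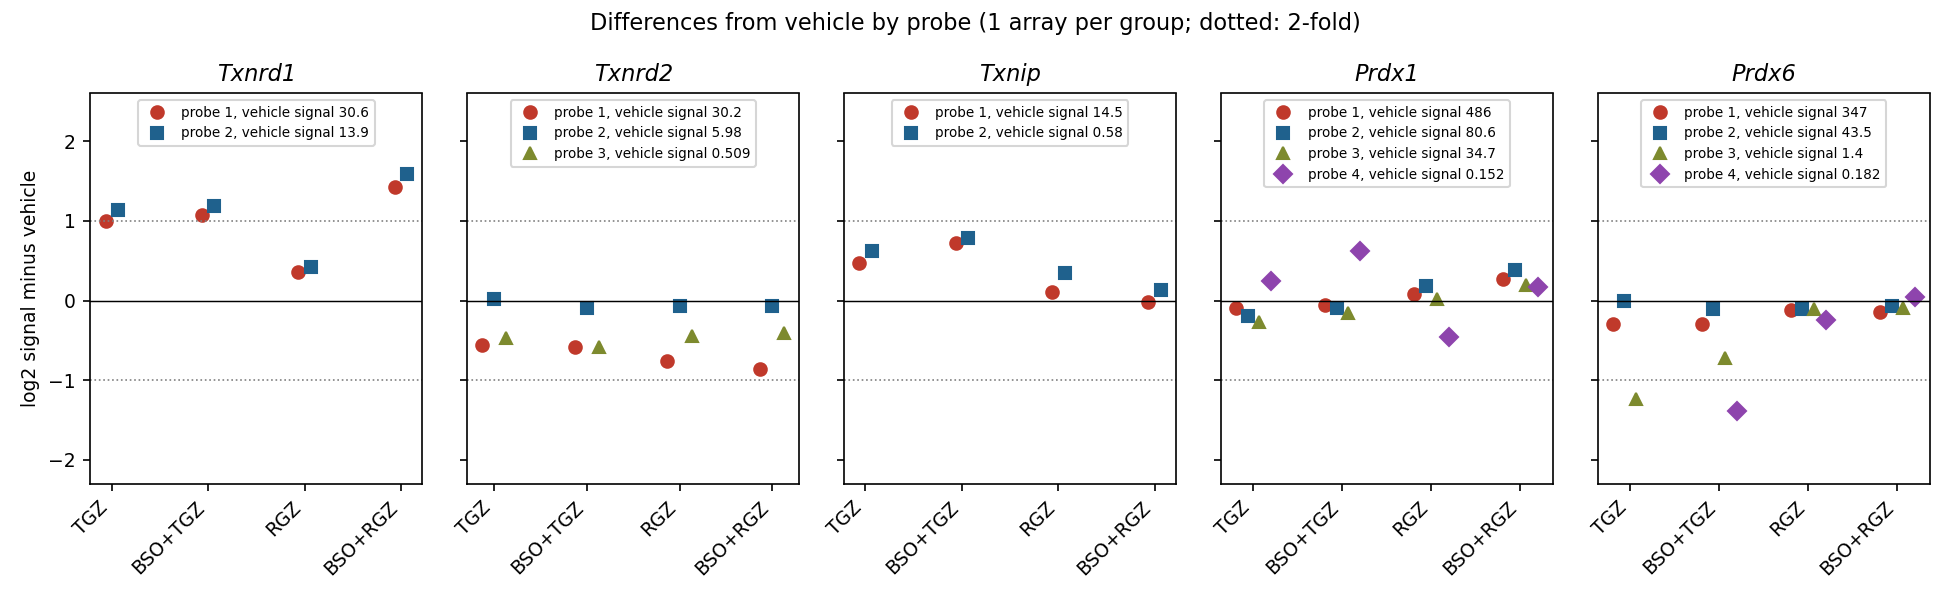
Log2 difference from vehicle by probe, for the members that have more than 1 probe and differ between groups or between probes. There is 1 pooled array per group, with dotted lines at 2-fold and no error bars. The Txnrd2 probe that was not well above background on any array is left out. Both Txnrd1 probes follow one order of groups, the second Txnrd2 probe is flat where the others are below 0, and the dimmer Prdx6 probes (3 and 4) are below the brightest with BSO plus TGZ. The dimmest Prdx6 probe has no point for TGZ, where it was not well above background.

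Counted over the members, 2 of 10 were at least 2-fold higher than vehicle with TGZ, where 10.1% of the 21215 genes with a value were, and 2 of 10 with BSO plus TGZ, where 8.31% were. With RGZ 0 of 10 were higher, beside 1.66% of genes, and with BSO plus RGZ 2 of 10 were, beside 3.05%. None was at least 2-fold lower in any of these 4 comparisons, beside 9.53%, 5.91%, 1.67% and 3.78% of genes. The genes called were Srxn1 and Txnrd1 in each case. A larger increase than that of Srxn1 was seen for 478 genes with TGZ, 436 with BSO plus TGZ and 70 with BSO plus RGZ. For Txnrd1 these numbers were 2132, 1629 and 240. The median log2 difference over the 10 members was -0.09 with TGZ, -0.05 with BSO plus TGZ, -0.05 with RGZ and -0.04 with BSO plus RGZ, and over all genes it was 0.02, -0.03, -0.03 and -0.05. The medians of the members and of all genes thus lay close together.

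BSO went with higher Srxn1 and Txnrd1 beside RGZ, whereas beside TGZ no member differed by 2-fold. With BSO plus RGZ against RGZ, 2 of 10 members were at least 2-fold higher, beside 0.523% of genes, and 0 lower, beside 0.725%. Srxn1 was 4.51-fold higher (3.42 to 5.95), and 2 of the 21233 genes compared had a larger increase. Txnrd1 was 2.09-fold higher (1.58 to 2.76), and 85 genes had a larger increase. Txn1, at 0.26, Prdx1 and Prdx3, both at 0.19, had intervals that included 0, as had the other 5 members, between -0.12 and -0.02. With BSO plus TGZ against TGZ, 0 of 10 members were at least 2-fold higher or lower, beside 1.57% and 0.495% of genes. Srxn1 was at a ratio of 0.935 (0.708 to 1.23) and Txnrd1 at 1.05 (0.796 to 1.39), and the member differences ran from -0.10 to 0.25.

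The change with BSO beside TGZ less that beside RGZ was -2.27 (-2.84 to -1.71) for Srxn1 and -0.99 (-1.56 to -0.43) for Txnrd1 on the log2 scale. At a 2-fold size, 1 of 10 members was lower, Srxn1, beside 1.0% of genes, and 0 were higher, beside 2.19%. Txnrd1 was just inside the threshold, and was past it when the arrays were scaled on their medians or the probes of a gene were averaged. For the other 8 members the value lay between -0.22 and 0.37 with intervals that included 0. Without BSO the Srxn1 signal was 115 with TGZ and 22.8 with RGZ, each from a separate pool of mice. Whether these levels bear on the change with BSO was not tested.

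**Figure D4:**
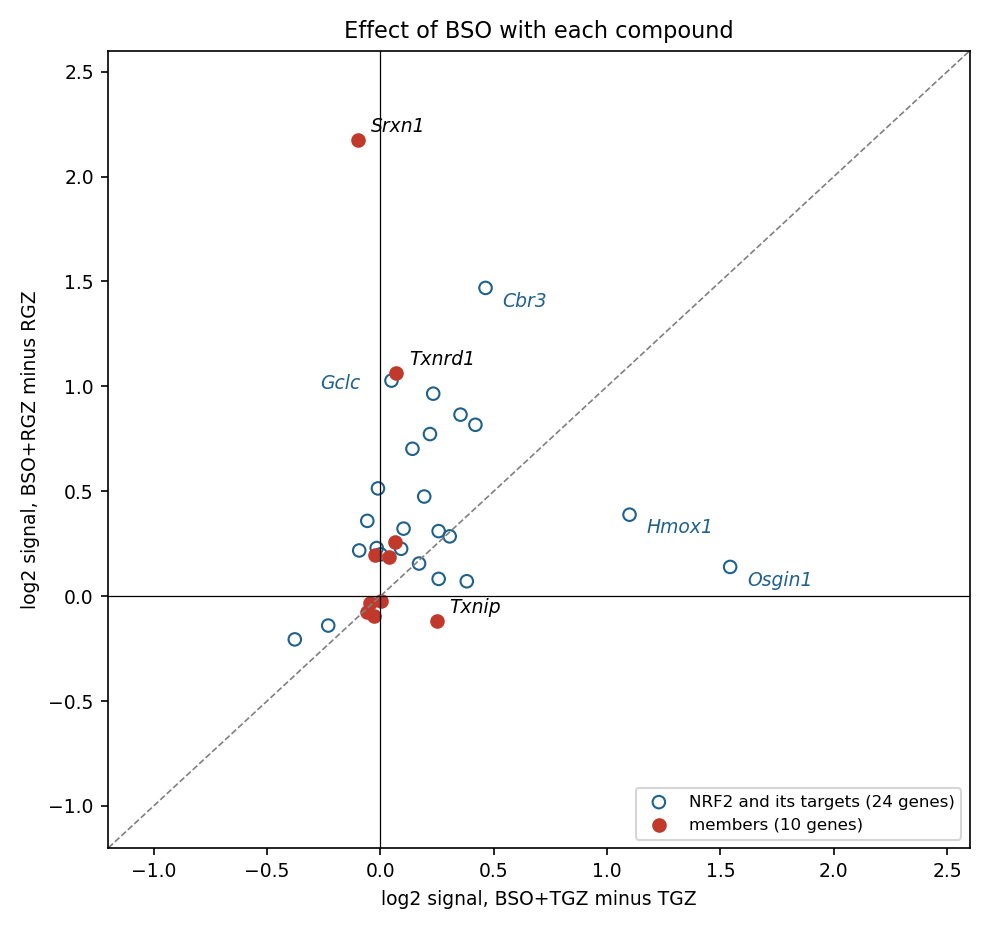
Log2 difference that went with BSO beside RGZ (vertical axis) and beside TGZ (horizontal axis) for the 10 members and for the genes of the NRF2 list, 1 pooled array per group, with the line of equal change. Srxn1 lies at 2.17 beside RGZ and -0.10 beside TGZ, and Txnrd1 at 1.06 and 0.07, both above the line.

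The glitazones were given at one dose and time, so they can be set side by side without BSO and with it, which makes 2 pairs for each member. Without BSO, 1 of 10 members was at least 2-fold higher with TGZ than with RGZ, beside 9.41% of genes, and 0 were lower, beside 8.56%. Srxn1 was 5.04-fold higher with TGZ (3.82 to 6.66), and Txnrd1 was at a ratio of 1.56 (1.18 to 2.06). Scaled on spike-in RNA these differences were 1.78 and 0.09 on the log2 scale in place of 2.33 and 0.64. With BSO, 0 of 10 members were at least 2-fold higher or lower, beside 8.33% and 5.28%. There the ratio of TGZ to RGZ was 1.05 (0.792 to 1.38) for Srxn1 and 0.785 (0.595 to 1.04) for Txnrd1, so with BSO the interval for Srxn1 still holds a difference of up to 1.38-fold. Txnip was at 1.67 (1.27 to 2.20) with BSO and at 1.30 (0.982 to 1.71) without it, and the latter turned below 0 on the log2 scale, to -0.18, when scaled on spike-in RNA. By the brightest probe of each gene, the peroxiredoxin ratios lay between 0.883 and 1.09 without BSO and between 0.796 and 1.08 with it.

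The other genes of the thioredoxin and glutaredoxin systems, 29 genes all with a value, stayed mostly within 2-fold, as most genes did. With TGZ, 2 were at least 2-fold higher than vehicle and 3 lower, beside 10.1% and 9.53% of all genes, at a median of -0.09. Higher were Glrx, the cytosolic glutaredoxin, at 1.52 and the methionine sulfoxide reductase Msrb3 at 1.13. Lower were Txnl4b at -2.04, Msrb2 at -1.57 and the sestrin Sesn3 at -1.25. With BSO plus TGZ, 2 were higher and 4 lower, beside 8.31% and 5.91% of genes. They were again Glrx (1.01) and Msrb3 (1.11), and Txnl4b (-1.43), Msrb2 (-1.25) and Sesn3 (-1.21), joined by Txndc16 (-1.06). With RGZ and with BSO plus RGZ, 0 of 29 were higher or lower, and 0 of 29 passed 2-fold when BSO was added to either compound. The shares of all genes in those comparisons ran from 0.495% to 3.78%. The nearest relatives of the members were within 2-fold throughout. Mitochondrial thioredoxin, Txn2, differed from vehicle by -0.13 with TGZ, -0.18 with BSO plus TGZ, -0.22 with RGZ and -0.24 with BSO plus RGZ. Prdx4, the peroxiredoxin of the endoplasmic reticulum, was at -0.09, -0.04, -0.21 and -0.18 in that order, and the third reductase, Txnrd3, at -0.24, -0.32, -0.63 and -0.69.

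Most other genes of the NRF2 pathway were not high with TGZ as Srxn1 was. Of the list of 25, which leaves the members out, 24 had a value. With TGZ, 2 were at least 2-fold higher than vehicle, the heme oxygenase Hmox1 at 4.24 and the small MAF protein gene Maff at 3.91, and 2 were lower, Nfe2l2, which codes for NRF2 itself, at -1.24 and Osgin1 at -1.94. The median was -0.13, and of all genes 10.1% were higher and 9.53% lower. In the BSO plus TGZ arm, Hmox1 (5.33) and Maff (3.53) were again higher and none was lower, Nfe2l2 being at -0.86. Of all genes 8.31% were higher and 5.91% lower there. With RGZ, 0 of 24 passed 2-fold, at a median of -0.08, beside 1.66% of genes higher and 1.67% lower. With BSO plus RGZ, 2 of 24 were higher than vehicle, beside 3.05% of genes: the carbonyl reductase Cbr3 at 1.60 and Hmox1 at 1.10. In that arm 19 of 24 were above 0, and the median was 0.35 beside -0.05 for all genes.

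With BSO plus RGZ against RGZ, 22 of 24 NRF2 genes were above 0, at a median of 0.32 beside 0.00 for all genes. Of these, 2 were at least 2-fold higher, beside 0.523% of genes: Cbr3 at 1.47 and Gclc, the catalytic subunit of the enzyme that BSO inhibits, at 1.03. With BSO plus TGZ against TGZ, 18 of 24 were above 0, at a median of 0.18. The 2 at least 2-fold higher, beside 1.57% of genes, were Osgin1 at 1.54 and Hmox1 at 1.10. Srxn1, at 2.17, was above each of the 24 with BSO beside RGZ. Glutathione reductase, Gsr, which does for glutathione what the thioredoxin reductases do for thioredoxin, differed from vehicle by 0.14 with TGZ, 0.28 with BSO plus TGZ, -0.04 with RGZ and 0.66 with BSO plus RGZ, so that it was highest, like Txnrd1, with BSO plus RGZ. Keap1, which holds NRF2 in check, was at -0.14, -0.05, 0.17 and 0.39.

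Of the genes that sense glucose with MondoA or ChREBP, or answer to them as Txnip does, 12 had a value. With TGZ 2 were at least 2-fold higher and 3 lower than vehicle, beside 10.1% and 9.53% of all genes. Higher were the hexokinase gene Hk2 at 1.13 and Mlxip, which codes for MondoA and was dim with vehicle, at least 2.28-fold. Lower were Arrdc3 at -3.14, the pyruvate kinase gene Pklr at -1.86 and Arrdc2 at -1.45. With BSO plus TGZ 2 were again higher and 3 lower, beside 8.31% and 5.91% of all genes. They were Hk2 at 1.21 and Mlxip at least 2.34-fold, and Arrdc3 at -2.31, Pklr at -1.68 and Arrdc2 at -1.07. Arrdc4, the arrestin-domain gene closest to Txnip in its known regulation, was at 0.78 with TGZ, 0.64 with BSO plus TGZ, -0.26 with RGZ and -0.21 with BSO plus RGZ, each within 2-fold of vehicle. Between TGZ and RGZ it differed by 1.04, past 2-fold. Mlxipl, which codes for ChREBP, was at -0.98, -0.74, -0.17 and -0.67. The list as a whole had a median of -0.67 with TGZ and -0.57 with BSO plus TGZ, whereas Txnip was at 0.48 and 0.72. With RGZ and with BSO plus RGZ, 1 of 12 was lower, Arrdc3 at -1.03 and -1.32, and 0 were higher. Of all genes 1.67% and 3.78% were lower in these comparisons, and 1.66% and 3.05% higher.

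Txnrd1 and Txnrd2 contain selenocysteine, and a list of other selenoproteins and of genes that make selenocysteine held 17, all with a value. Some selenoproteins stand in other lists, Gpx3 among them with the enzymes below. With TGZ, Selenon was at least 2-fold higher at 1.16 and 4 were lower: Sephs2 at -1.43, Pstk at -1.24 and Sepsecs at -1.04, which act in selenocysteine synthesis, and the deiodinase Dio1 at -1.01. Of all genes 10.1% were higher and 9.53% lower there. With BSO plus TGZ, Selenon was again higher, at 1.10, and 0 were lower, beside 8.31% and 5.91% of genes. Sepsecs was only just inside the threshold there, and Sephs2, Pstk and Dio1 were at -0.91, -0.94 and -0.79. With RGZ and BSO plus RGZ 0 of 17 passed 2-fold, beside 1.66% and 3.05% of genes higher and 1.67% and 3.78% lower. Of 8 other enzymes that remove hydrogen peroxide or superoxide, 1 was higher and 2 lower with TGZ, Gpx3 at 1.79, Gpx7 at -1.32 and Pxdn at -1.47. In the arm with BSO plus TGZ, 1 was higher, again Gpx3, and 1 lower, Gpx7 at -1.11, and with BSO plus RGZ the mitochondrial superoxide dismutase Sod2 was higher at 1.41. With RGZ 0 of 8 passed 2-fold. The shares of all genes to set beside these 8 enzymes are those just given for the same comparisons.

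In a bulk liver, fewer cells of a type and less RNA per cell cannot be told apart, and markers of blood cells moved with the treatments. The summed signal of 13 neutrophil markers was 120 with vehicle, 1120 with TGZ, 924 with BSO plus TGZ, 393 with RGZ and 697 with BSO plus RGZ, with 8, 13, 13, 10 and 12 of them well above background. Such a sum is led by its brightest probes, here Lcn2, which hepatocytes also make. Without Lcn2 the sums were 110, 262, 262, 120 and 126 in the same order of groups. They were led in turn by Csf3r, which varied little, at 100, 115, 115, 95.3 and 93.8, and so understate the change of most other markers. The median log2 difference from vehicle of the markers with a value was 3.65 with TGZ and 3.46 with BSO plus TGZ. It was 1.01 with RGZ and 1.06 with BSO plus RGZ. Markers that were dim with vehicle entered these medians at their lower bound. Against vehicle, 10 of 13 of these markers were at least 2-fold higher with TGZ, 10 of 13 with BSO plus TGZ, 5 of 10 with a value with RGZ and 6 of 12 with BSO plus RGZ. Of all genes 10.1%, 8.31%, 1.66% and 3.05% were higher in that order. The part of neutrophils in the Srxn1 and Txnrd1 values was not tested. The summed erythroid signal was 889 with vehicle, 914 with TGZ, 1020 with BSO plus TGZ, 517 with RGZ and 554 with BSO plus RGZ, from 7 markers that were well above background on all 5 arrays. Prdx2, which is abundant in red cells, stayed between 40.4 and 45.3. The summed signals of the other cell types ranged from 9082 to 12710 for hepatocytes (12 markers), 64.3 to 82.4 for Kupffer cells (11), 42.5 to 69.9 for sinusoidal endothelium (9), 96.2 to 139 for stellate cells (9), 25.9 to 47.5 for lymphocytes (9, of which Cd79a and Cd8a were well above background on no array and Cd3g on 3) and 5.0 to 13.8 for bile duct (7, of which Krt7 and Epcam were well above background on no array). Such sums can hide changes of markers. Against vehicle with TGZ, 1 of 9 endothelial markers was at least 2-fold higher (Lyve1 at 3.75). Lower were 4, with Kdr at -1.94 among them. Of 9 stellate markers 1 was lower (Lrat at -2.21). Of 11 Kupffer markers 1 was higher (Cd68 at 1.54), as was 1 of 5 bile duct markers with a value (Sox9 at 3.74). Of 12 hepatocyte markers 2 were higher, and of 7 lymphocyte markers with a value 1 was lower. Of all genes 10.1% were higher and 9.53% lower. The part of these cells in the member values was not tested.

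Genes with profiles most like those of Srxn1 and Txnrd1, the members that spanned at least 2-fold, were sought among the 18487 genes by the root mean square difference of log2 signals centred over the 5 arrays. For Srxn1 they were Asns (0.31), the asparagine synthetase gene, Adora1 (0.36), an adenosine receptor gene, and the transcript ENSMUST00000120059 (0.44). Asns differed from vehicle by 2.40 with TGZ, 2.43 with BSO plus TGZ, 0.75 with RGZ and 2.06 with BSO plus RGZ, beside 2.28, 2.18, -0.05 and 2.12 for Srxn1. For Txnrd1 they were Ms4a8a (0.11), Ctps (0.12), a CTP synthetase gene, and Arid3a (0.16). The nearest gene of each member had low signals, from 0.162 to 0.872 for Asns and from 0.123 to 0.305 for Ms4a8a. The lowest signals called well above background were 0.0499 to 0.0663 on the 5 arrays. Likeness over 5 arrays of 1 pool each is a description of these arrays.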

How the data were processed

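Per the labels' protocols, the authors extracted liver RNA, pooled it in equal amounts from 6 animals per group and labelled it with Cy3 for 1-colour Agilent arrays, all 5 on 1 slide per the file headers. The deposited intensity is the processed signal of Feature Extraction 12.0.3.1, background-subtracted and detrended per the file headers, with surrogate values near background and no scaling between arrays. A second deposited table gives log2 values, which differ from the log2 of that signal by 1 offset on each array; its column medians were 4.02 (vehicle), 4.01 (TGZ), 4.07 (BSO with TGZ), 4.00 (RGZ) and 3.92 (BSO with RGZ). It was used as an alternative only. It is not centred per gene, and the name of its scaling software was not given in the sources used here. Full compound names follow the study's title and general knowledge.

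Log2 processed signals were set against the 75th percentile of each array's non-control probes, in Python 3.11.15 with pandas 2.3.3. Where a gene had several probes, the one brightest on average over the arrays stood for it. Intervals take 1.96 SD, from the software's error for each of the spots compared (median SD 0.144 for the members on each array). Where 1 array of a comparison was dim, the gene was set against the lowest signal called well above background there, and written "at least". Genes well above background on neither have no value. The calculation was tested on simulated data. With 1 array per group there is no replicate check. Precision is limited by the number of arrays.

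The members, lists and alternatives were chosen with earlier results of these data known. The rule for named genes took all members, list genes past 2-fold (up to 5 per list and comparison), the regulators and direct partners of members, and the 3 genes most like each member that spanned 2-fold. Of 183 genes in 17 lists, 180 were found by name, including 1 by a synonym. Probe coordinates are mm9 as the array files give them. Exon and UTR annotation of that build was not used here. Normexp and quantile normalization used limma 3.58.1 in R 4.3.3. 1 marker gene of the lists is not reported here.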

Additional observations from a re-analysis of the deposited data

Results flagged for a closer look

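For 4 members the difference that went with BSO had opposite signs beside TGZ and beside RGZ. The difference between them was not tested, since each group is 1 pool on 1 array. For Srxn1 the change with BSO beside TGZ less that beside RGZ was -2.27 on the log2 scale, from -0.10 and 2.17, and its interval of measurement error, -2.84 to -1.71, did not include 0. For Txnip it was 0.37, from 0.25 and -0.12. For Prdx3 it was -0.22, from -0.02 and 0.19. For Prdx6 it was 0.03, from 0.00 and -0.02. The intervals of Txnip, Prdx3 and Prdx6 included 0.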

How the results depend on the processing

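The 9 alternatives were scaling on the array median or on spike-in RNA, normexp background correction, normexp with quantile normalization, no filter on dim probes, only genes bright on all 5 arrays, the filter of the sample descriptions, the mean over the probes of a gene, and the deposited table. Of 720 member differences under them, 695 moved by less than measurement error, 25 moved further, and none that was past 2-fold changed sign; 5 came within 2-fold and 1 went past it. Of 81 counts of members past 2-fold, 75 stayed within 1.5 times. These totals include alternatives that left the member signals as they were, so neither the differences nor the counts could move there. Such were no filter on dim probes, only genes bright on all 5 arrays and the filter of the sample descriptions. The deposited table differs from the processed signal only by 1 offset on each array. With TGZ against vehicle 1 member was called in place of 2 with normexp and 1 with quantile normalization, where Txnrd1 was at 0.89 and 0.82. With BSO plus TGZ against vehicle 1 was called with quantile normalization and 1 with spike-in scaling, where Txnrd1 was at 0.99 and 0.88. For the difference between the BSO effects 2 were called in place of 1 with median scaling and 2 with the mean over probes, Txnrd1 being the second. Spike-in scaling lowered every difference from vehicle by 0.46 with TGZ and by 0.19 with BSO plus TGZ, moving the median of all genes to -0.44 and -0.22, and with TGZ 1 member was then higher, Srxn1 at 1.83, and 1 lower, Txnrd2 at -1.01. No paired analysis was possible because every group has 1 array. The measurement error of 1 pair of spots does not resolve differences under about 1.32-fold.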
